A study of Mus musculus with 4 samples.

Results

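Qk, Cpeb3, Hnrnpa2b1, Rbm4 and Gigyf2, genes of regulators that act on RNA, were followed as hosts of circular RNAs (circRNAs) in mouse heart. Every circRNA whose host label contains one of these genes was taken, joint labels included, which gave 5 of 709 host genes, 9 of the 1046 circRNAs listed and 146 of 7303 back-splice reads. The hosts had been selected on the back-splice reads, non-junction reads and circular share of these libraries, sham against ischemia/reperfusion (I/R), so their values in that contrast are given as a description, and tests are given only as counts over the whole table.

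The heart tissue came from C57BL/6 mice, 2 libraries after sham surgery (sham 1 and sham 2) and 2 from a myocardial I/R injury model (I/R 3 and I/R 4), named by the number in their titles. In I/R the blood supply of heart muscle is cut off and later returned; the labels give no age or times, and do not say if each library is a different animal. Total RNA was sequenced, and a back-splice read, which joins the end of a downstream exon to the start of an upstream one, was the evidence for a circRNA. The libraries held 1627 to 1982 back-splice reads, so that 1 read was worth 505 to 615 CPM, the library's back-splice reads brought to a common total. The smallest count listed was 2 reads, and 0 and 1 read cannot be told apart. Values for the 4 libraries are given in the order sham 1, sham 2, then I/R 3 and I/R 4, called library order.

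A circRNA is made when the spliceosome joins a donor to an acceptor that lies upstream, and it competes with the linear messenger RNA of the same gene for the same splice sites. RNA-binding proteins take part in this choice: quaking, encoded by Qk, binds introns that flank circularising exons and promotes circle formation. The hosts described here thus encode regulators of splicing, polyadenylation or translation that are themselves back-spliced. Qk, Hnrnpa2b1 and Rbm4 encode regulators of alternative splicing. Cpeb3 encodes a cytoplasmic polyadenylation element binding protein that controls translation, and Gigyf2 a repressor of translation that acts with the cap-binding protein Eif4e2.

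The exons inside each circle were sought by length in the GENCODE M21 annotation (GRCm38), since the deposited positions are in mm9 and were not converted. For 5 of the 9 circRNAs the span equalled the distance between 2 exon boundaries of a host transcript, in each case 1 pair of boundaries. Of all 951 exonic circRNAs, 895 (94.1%) had such a match, which any gene of a joint label could give. For the 9 circRNAs only transcripts of the 5 hosts were searched, so these counts differ in rule. The Rbm4 circRNAs were not matched to single transcripts of Gm21992, the other gene of their label. The Qk circRNA (chromosome 17, 10431758 to 10475846, minus strand, 44089 bp) matched exons 2 to 4 of Qk-201, 404 bases when joined. The Cpeb3 circRNA (chromosome 19, 37119012 to 37142781, minus strand, 23770 bp) matched exons 8 to 10 of Cpeb3-201, 416 bases. The Gigyf2 circRNA (chromosome 1, 89260679 to 89276583, plus strand, 15905 bp) matched exons 4 to 8 of Gigyf2-201, 494 bases. The median over all matched circRNAs was 471 joined bases in 3 exons, so these circles are of common size, whereas the genomic spans of the Qk, Cpeb3 and Gigyf2 circRNAs exceed the median of 8814 bp.

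Hnrnpa2b1 had a pair of circRNAs that share their upstream end. The shorter (chromosome 6, 51415178 to 51416221, minus strand, 1044 bp) matched exons 6 to 7 of Hnrnpa2b1-202, 144 joined bases, and the longer (51414427 to 51416221, 1795 bp) matched exons 6 to 8, 264 joined bases. All joined bases of these 5 circles are coding in the transcripts named. The joined lengths of both Hnrnpa2b1 circles divide by 3, and those of the Qk, Cpeb3 and Gigyf2 circles leave 2 bases over. The files show only the junction, so whether introns remain within a circle was not seen.

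The back-splice junctions below are what a read must cross to count for these circRNAs. Each joins the last 30 bases of the downstream exon (lower case) to the first 30 bases of the upstream exon (capitals), 5′ to 3′ on the gene's strand, from the GENCODE M21 transcript sequences.
Qk, exon 4 to exon 2: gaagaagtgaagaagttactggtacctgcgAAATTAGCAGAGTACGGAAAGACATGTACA
Cpeb3, exon 10 to exon 8: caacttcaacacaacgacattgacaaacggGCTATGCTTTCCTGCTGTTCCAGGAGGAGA
Gigyf2, exon 8 to exon 4: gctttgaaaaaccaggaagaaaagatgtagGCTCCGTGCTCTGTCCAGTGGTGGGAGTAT
Hnrnpa2b1, exon 7 to exon 6: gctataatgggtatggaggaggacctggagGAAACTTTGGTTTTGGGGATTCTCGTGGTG
Hnrnpa2b1, exon 8 to exon 6: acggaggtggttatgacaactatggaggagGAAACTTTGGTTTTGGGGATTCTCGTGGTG
None of the 5 junctions occurs in an annotated transcript of any gene (0 genes on either strand). The capitals of both Hnrnpa2b1 junctions are the same, since both circles begin at exon 6. Of the exon ends and starts printed, the end of Hnrnpa2b1 exon 7 also occurs in 1 other gene, Gm5778, so reads there can be shared with that copy.

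**Figure D1:**
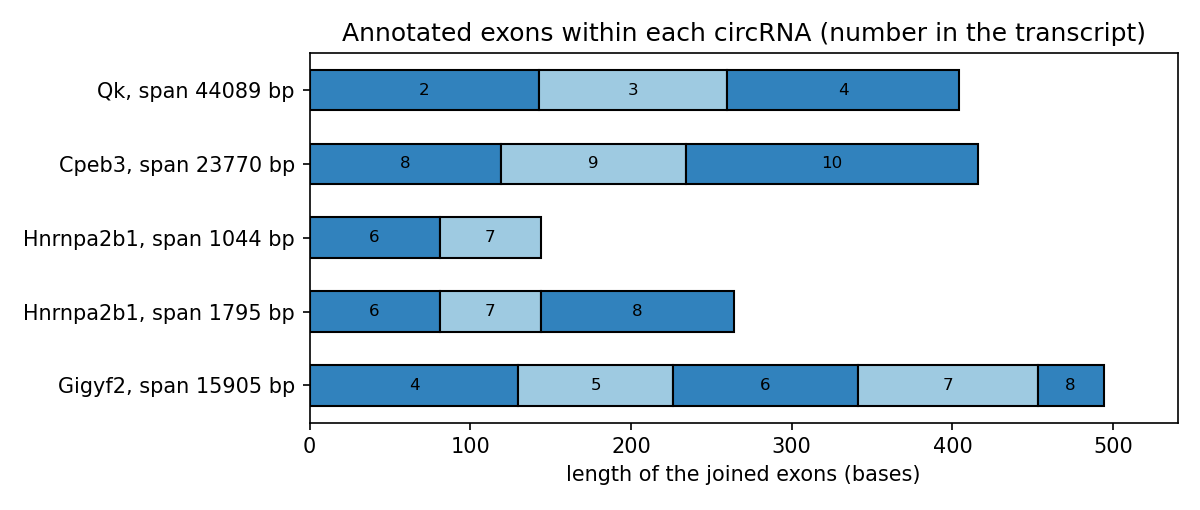
Annotated exons within the 5 circRNAs whose span matched an exon pair, drawn to scale by length in bases, with each exon's number in its transcript. The circles of Qk (404 bases), Cpeb3 (416) and Gigyf2 (494) are similar in joined length, and those of Hnrnpa2b1 are shorter (144 and 264).

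The other 4 circRNAs carry the joint label of Rbm4 and Gm21992, a gene model on the same strand that shares exons with Rbm4. Reads of the shared exons cannot be assigned to either gene. The most abundant (chromosome 19, 4792398 to 4794009, minus strand, 1612 bp) matched no exon pair of a single Rbm4 transcript. Its span equalled the distance of 1 pair of boundaries over both genes together: the lower boundary belongs to an exon of both, and the upper to Gm21992 alone. The paralog Rbm4b holds a close copy of Rbm4 exon 2, which has that lower boundary. Exon 2 of Rbm4 (423 bases) and of Rbm4b (424 bases) are 98.8% identical when aligned, with 419 identical bases. The last 30 bases of the Rbm4 exon also occur in Rbm4b. No circRNA was listed under Rbm4b (0 of 1046). The other side of the junction was not compared with Rbm4b. Whether reads of the 1612 bp circRNA could also come from that copy was therefore not tested. The other 3 Rbm4 circRNAs share their downstream end at 4784724 and reach 4785567 (844 bp), 4788042 (3319 bp) and 4794009 (9286 bp), and none of these spans matched a pair of annotated boundaries (0 pairs each). Their upstream ends lie 2475 and 5967 bases apart, and each of these distances occurs once between exon starts of the joint locus.

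Of the 9 circRNAs, 6 carry a circBase identifier, as do 67.8% of all circRNAs listed. Those without one are both Hnrnpa2b1 circRNAs and the 1612 bp Rbm4 circRNA. The 146 reads have 146 different names, and 0 of these names support a further circRNA or library. In each library the reads of each circRNA lay on as many flow-cell tiles as there were reads.

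As a check of the tissue label, 11 of 23 cardiomyocyte markers hosted circRNAs, with 15.6%, 11.1%, 15.4% and 19.5% of the back-splice reads in library order. Fibroblast (12 genes), leukocyte (14 genes) and smooth muscle or pericyte markers (10 genes) had 0 reads. Endothelial markers had 6, 7, 6 and 10 reads from 2 of 12 genes. The cardiomyocyte share was highest in I/R 4, as were the reads of several hosts below, and its part in them was not tested. These lists are read through circRNAs alone, so a gene that forms none is not seen. In tissue, fewer cells of a type and less RNA per cell cannot be told apart.

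The 5 hosts together held 34, 25, 37 and 50 back-splice reads in library order. That was 1.80% of the library (95% Clopper-Pearson interval 1.25 to 2.50) in sham 1 and 1.54% (0.997 to 2.26) in sham 2. In I/R 3 it was 2.05% (1.45 to 2.82) and in I/R 4 2.52% (1.88 to 3.31). Both I/R libraries lay above both sham libraries, with intervals that overlap, in hosts selected on this contrast. By host, in CPM, Qk and Cpeb3 had that order and Rbm4 and Gigyf2 overlapped. Hnrnpa2b1 had the opposite order, with 9, 2, 0 and 0 reads, where the 2 reads of sham 2 are the list minimum. Over the 158 circRNAs tested (below), 17.7% had both I/R libraries above both sham libraries in CPM and 20.9% below. That set holds no Hnrnpa2b1 circRNA, and the share of all hosts with either order was not counted. Sums over other sets of hosts were not compared. Without molecular identifiers a read is not a counted molecule, so the intervals hold counting error alone. Rbm4 supplied 36.3% of the 146 reads, Gigyf2 23.3%, Qk and Cpeb3 16.4% each and Hnrnpa2b1 7.53%.

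**Figure D2:**
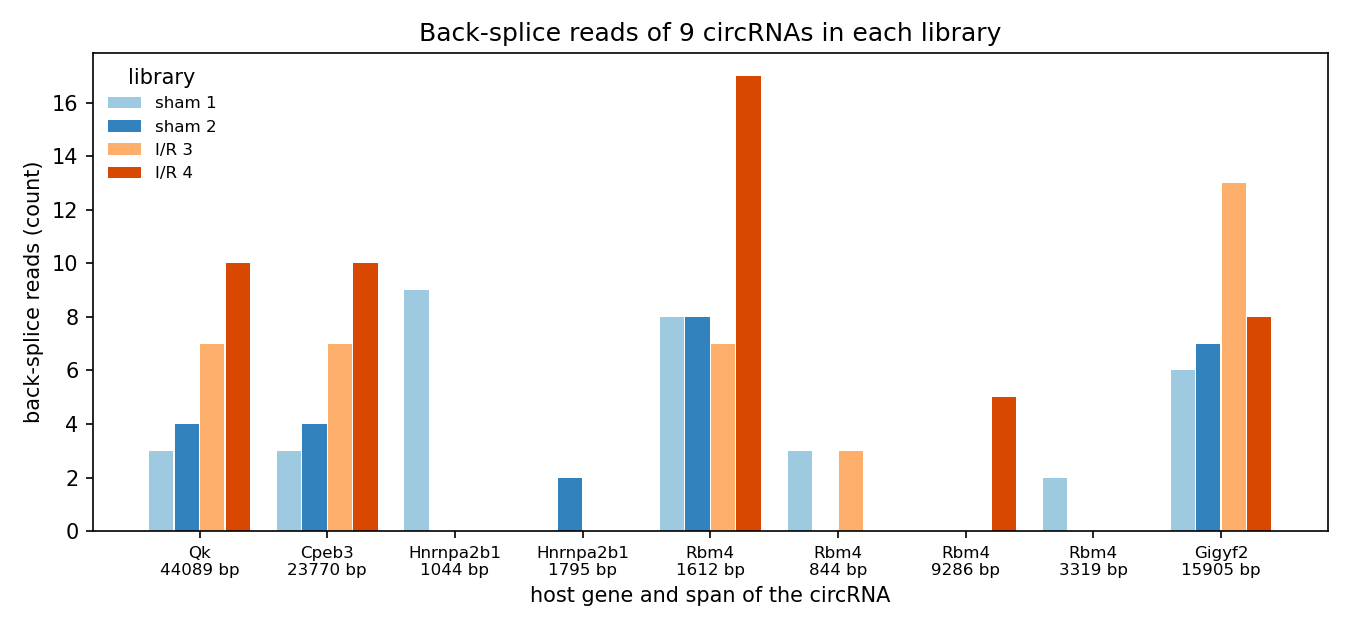
Back-splice reads (count) of the 9 circRNAs in each of the 4 libraries, by host gene and genomic span. The counts are not scaled for depth. Qk and Cpeb3 (3 and 4 reads in sham, 7 and 10 in I/R) have more reads in both I/R than in both sham libraries. So has Gigyf2 (6 and 7, then 13 and 8), whose groups overlap in CPM. The circRNAs of Hnrnpa2b1 are each listed in 1 sham library.

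Qk and Cpeb3 had the same read counts. The Qk circRNA had 3, 4, 7 and 10 reads in library order, and so had the Cpeb3 circRNA, from different reads. For each, the I/R libraries had 4463 ± 824 CPM and the sham libraries 2023 ± 616 CPM (SD, n = 2), a ratio of 2.21. Neither I/R library fell within the sham range, although the interval of each I/R library's share (0.156 to 0.798% for I/R 3, 0.242 to 0.926% for I/R 4) overlapped that of each sham library (0.0327 to 0.463% for sham 1, 0.0670 to 0.628% for sham 2). The fitted log2 fold change was 1.27 (SE 0.40) for each, and without a library it ranged from 0.99 to 1.36. That SE is below the counting error of 7 reads in sham and 17 in I/R, which alone gives an SE of 0.65 on the log2 scale.

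The Gigyf2 circRNA had 6, 7, 13 and 8 reads. Both I/R counts were above both sham counts. Scaled for depth, I/R had 5621 ± 2241 CPM and sham 3739 ± 797 CPM (SD, n = 2). On the CPM scale the groups overlapped, since I/R 4 (4036 CPM) lay below sham 2 (4302 CPM). The fitted log2 fold change of 0.70 (SE 0.40, with 0.51 from counting alone) was 0.15 without I/R 3.

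The 1612 bp Rbm4 circRNA had 8, 8, 7 and 17 reads, the most of the 9. Sham 1, sham 2 and I/R 3 were alike, and I/R 4 alone was high, at 0.858% of its library (0.500 to 1.37). The I/R libraries had 6229 ± 3321 CPM and the sham libraries 4575 ± 484 CPM (SD, n = 2), with overlapping groups, and the fitted log2 fold change of 0.59 (SE 0.54) turned to -0.17 without I/R 4 and was 0.93 without I/R 3.

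The 3 other Rbm4 circRNAs had few reads. The 844 bp circRNA was listed with 3 reads in sham 1 and 3 in I/R 3, the 3319 bp circRNA with 2 reads in sham 1, and the 9286 bp circRNA with 5 reads in I/R 4. No library listed all 4 Rbm4 circRNAs, and the 1612 bp circRNA made up 61.5%, 100%, 70.0% and 77.3% of the host's 13, 8, 10 and 22 reads.

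Hnrnpa2b1 encodes an abundant nuclear protein that binds pre-mRNA, and its circRNAs were listed in sham alone. The 1044 bp circRNA had 9 reads in sham 1, spread over 4 lanes, and the 1795 bp circRNA 2 reads in sham 2. Neither was listed in the other 3 libraries. Absence from a library was frequent over all 1046 circRNAs. In library order 467, 403, 391 and 444 were listed, and 102 in all 4 libraries. How many of all circRNAs were listed in sham alone was not counted. The host sum of 9, 2, 0 and 0 reads thus joins 2 different circles, each from a single library. No fold is given, since the list minimum hides single reads.

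Across the whole table, 0 of 158 circRNAs with at least 10 reads and a read in at least 2 libraries passed edgeR's quasi-likelihood test at an adjusted p of 0.05 (percent called 0; 9 had an unadjusted p under 0.05, and 6 in DESeq2, which also called 0). Of the 9 circRNAs here, 4 met that minimum, 1 each of Qk, Cpeb3, Rbm4 and Gigyf2, and the other 5 were not tested. Over the 158 the median fitted log2 fold change was 0.06, with 90 above 0, and the 4 were among these. In CPM both I/R libraries lay above both sham libraries for 28 of the 158 (17.7%), which include Qk and Cpeb3, and below for 33 (20.9%), which include none of the 4. Summed per host, 0 of 153 hosts passed in edgeR (percent called 0; 8 had an unadjusted p under 0.05, and 4 in DESeq2, with 0 called).

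The authors' deposited table lists 11 circRNAs with an adjusted p under 0.05, none of these 9. That table does not state its contrast, so the direction of its signs is not known from it alone. For each of these 9 circRNAs its sign was that of the difference in mean CPM, I/R minus sham. In the authors' deposited table the log2 fold change was 1.14 for the Qk and the Cpeb3 circRNA, 0.59 for Gigyf2 and 0.42 for the 1612 bp Rbm4 circRNA. It was -2.08 for the 1044 bp and -1.18 for the 1795 bp Hnrnpa2b1 circRNA. The other Rbm4 circRNAs had 0.05 (844 bp), -1.18 (3319 bp) and 1.72 (9286 bp).

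The circular share sets back-splice reads against reads that pass the same splice sites without crossing the junction. The deposited fraction is 2 times the back-splice reads divided by that product plus the non-junction reads, and is given here in percent with a Clopper-Pearson interval carried through the same formula. A non-junction read can be from the linear RNA or the circle itself.

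The 1612 bp Rbm4 circRNA had the highest share of the 4 circRNAs listed in every library. It was 16.3% (7.54 to 28.7), 21.6% (10.2 to 36.7), 23.3% (10.4 to 40.4) and 41.0% (27.3 to 55.1) in library order. I/R 4 again stood above the other 3 libraries. The Rbm4 circRNAs that each library listed (3, 1, 2 and 2 in library order) were then joined. The mean share differed by 4.00 percentage points (I/R minus sham). It differed by 8.67 with the reads also joined over the libraries of a group, and by 13.2 for the 1612 bp circRNA alone. For the circRNAs joined in each library, the difference turned to -2.61 when sham 1 was left out and to -1.03 when I/R 4 was. An unlisted circRNA added no non-junction reads, so the sites joined differed between libraries. Sham 2, the only sham value when sham 1 was left out, listed the 1612 bp circRNA alone.

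The Gigyf2 circRNA had a share of 10.5% (4.05 to 20.9) in sham 1 and 11.5% (4.84 to 21.7) in sham 2. It was 20.97% (12.0 to 32.2) in I/R 3, and I/R 4 had 19.05% (8.90 to 32.9). The libraries of a group lay close together, with means of 20.01 ± 1.36% for I/R and 11.0 ± 0.67% for sham (SD, n = 2). These SDs of 2 values are much smaller than the counting intervals of the single libraries, so they understate the uncertainty. Although its CPM overlapped between groups, its share was higher in both I/R libraries than in both sham libraries.

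The Cpeb3 circRNA had 4.76% (1.01 to 13.0), 5.03% (1.41 to 12.2), 6.60% (2.73 to 12.9) and 9.26% (4.60 to 16.1) in library order. The Qk circRNA, with the same back-splice reads, had 1.19% (0.246 to 3.41), 1.54% (0.422 to 3.86), 2.50% (1.02 to 5.06) and 2.90% (1.41 to 5.24). Both kept the I/R libraries above the sham libraries. Group means were 4.90 ± 0.19% and 7.93 ± 1.88% for Cpeb3, and 1.36 ± 0.25% and 2.70 ± 0.28% for Qk (SD, n = 2).

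**Figure D3:**
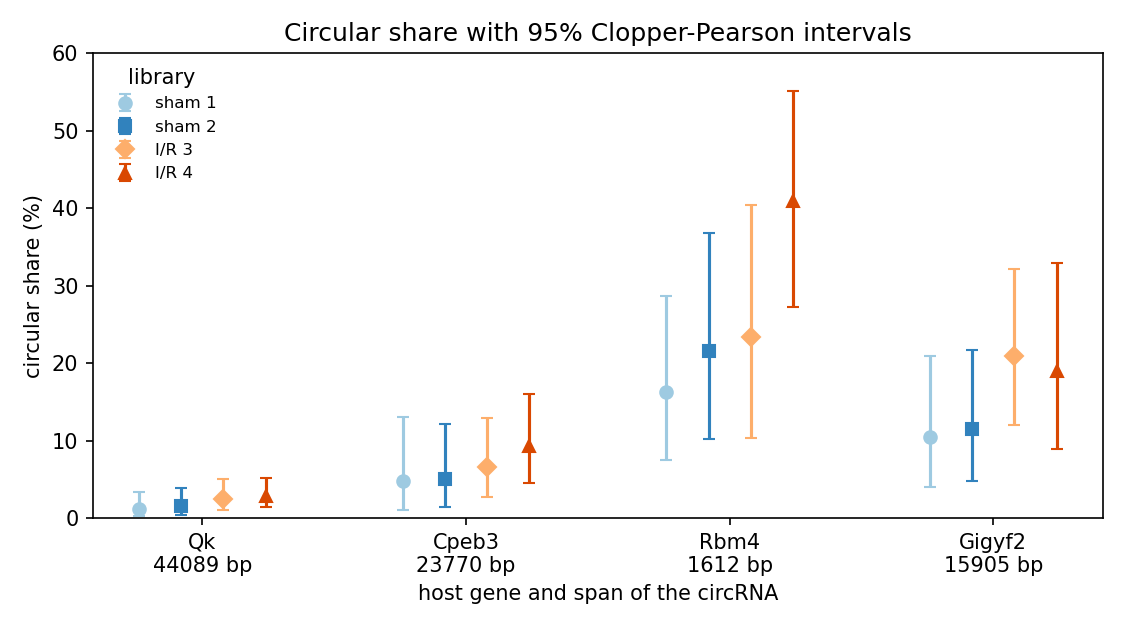
Circular share (%) of the 4 circRNAs listed in every library, with 95% Clopper-Pearson intervals, by host gene and genomic span. Each circRNA has both I/R libraries above both sham libraries with overlapping intervals, and shares run from 1.19% for Qk in sham 1 to 41.0% for Rbm4 in I/R 4.

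All 4 circRNAs thus had a higher circular share in both I/R libraries than in both sham libraries, which held for 31 of the 102 circRNAs listed in every library (30.4%) and was reversed for 17 (16.7%). The intervals overlapped in 4 of 4 pairs of a sham and an I/R library for each of the 4 circRNAs. In a fit of back-splice against non-junction reads with the library as a block, 1 of 102 sites passed in edgeR at an adjusted p of 0.05 (0.98%; 4 had an unadjusted p under 0.05). The fitted log2 ratio change was 1.03 (SE 0.44) for Rbm4, 0.92 (SE 0.34) for Gigyf2, 0.91 (SE 0.47) for Qk and 0.64 (SE 0.45) for Cpeb3, against a median of 0.07 over the 102. Each of these SEs lies below the counting error of the back-splice reads alone, 0.47, 0.51, 0.65 and 0.65 in the same order. Without I/R 4 the ratio change was 0.27 for Rbm4 and 0.33 for Cpeb3.

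The order of the shares was the same in every library: Rbm4, then Gigyf2, Cpeb3 and Qk. The highest Qk share (2.90%) lay below the lowest of Cpeb3 (4.76%), and the highest Cpeb3 share (9.26%) below the lowest of Gigyf2 (10.5%), while the ranges of Gigyf2 and Rbm4 overlapped. Within a library the counting intervals of neighbours in this order overlapped in 4 of 4 libraries. Those of Qk overlapped with Rbm4 and with Gigyf2 in 0 of 4 libraries, and those of Rbm4 with Cpeb3 in 3 of 4. Among the 102 circRNAs, by mean share, Rbm4 ranked 24, Gigyf2 45, Cpeb3 71 and Qk 92, with a median of 11.0% over the 102. By mean CPM the order is Rbm4 (rank 16), Gigyf2 (rank 20), then Qk and Cpeb3 (both rank 41).

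The sites of Qk and Cpeb3, alike in back-splice reads, differed in non-junction reads. The Qk site had 500, 513, 545 and 669 non-junction reads in library order, and ranked 15 of 102. The Cpeb3 site had 120, 151, 198 and 196. At Qk there were 92.8 non-junction reads for each back-splice read over the 4 libraries, and at Cpeb3 27.7. Both I/R counts lay above both sham counts at each of these sites. Scaled like CPM to the non-junction reads of the 102 sites, Qk had 8823, 9938, 10293 and 10328, and Cpeb3 2117, 2925, 3739 and 3026. On that scale the I/R libraries still lay above the sham libraries, with sham 2 close below them at Qk and close below I/R 4 at Cpeb3.

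At the Gigyf2 site there were 102, 108, 98 and 68 non-junction reads, and at the 1612 bp Rbm4 site 82, 58, 46 and 49. Both I/R counts lay below both sham counts at these 2 sites, the opposite order to Qk and Cpeb3. On the same scale Gigyf2 overlapped (1800, 2092, 1851 and 1050), while Rbm4 did not (1447, 1124, 869 and 756). On that scale both I/R libraries were above both sham libraries for 16 of 102 sites (15.7%) and below for 42 (41.2%). There were 11.1 non-junction reads for each back-splice read at Gigyf2 and 5.88 at Rbm4.

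The sites of the less frequent circRNAs were read only where listed. The Hnrnpa2b1 sites had 965 non-junction reads in sham 1 and 1019 in sham 2, the most of the 9, so 9 and 2 back-splice reads made shares of 1.83% (0.843 to 3.43) and 0.391% (0.0475 to 1.40). The Rbm4 circRNAs that end at 4784724 had 77 to 101 non-junction reads and shares of 3.85% to 10%.

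**Figure D4:**
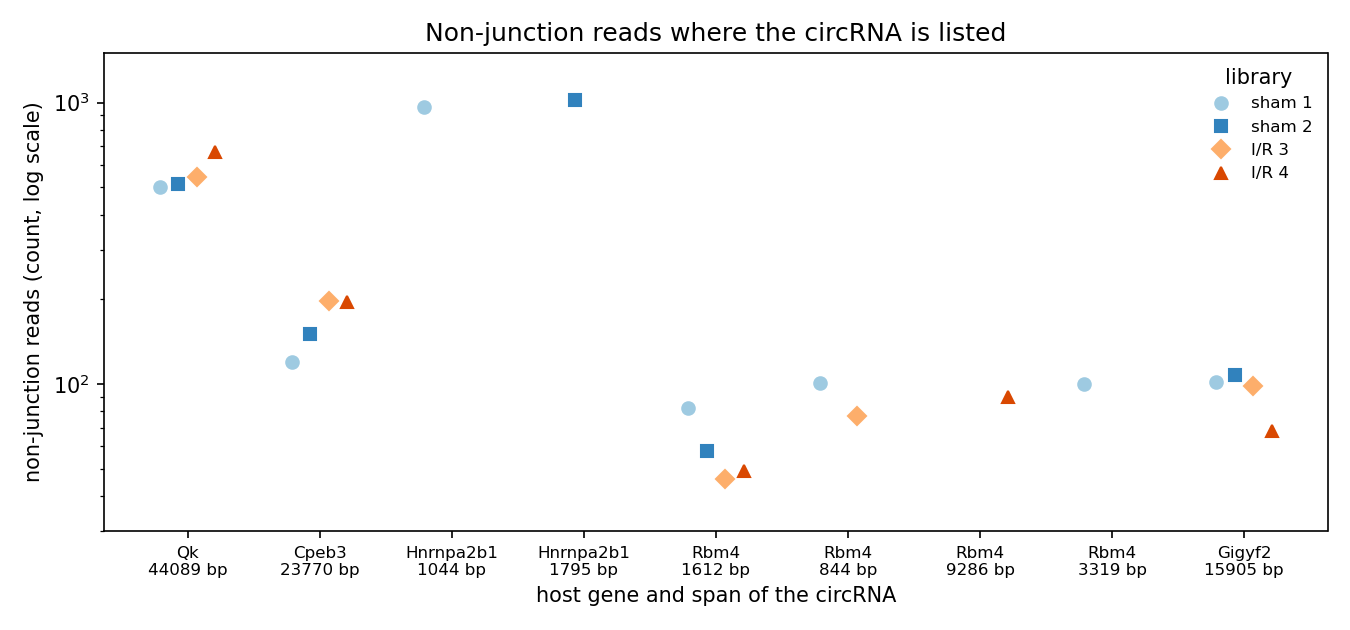
Non-junction reads (count, log scale) at the 9 circRNAs in each library that lists the circRNA, by host gene and genomic span. Counts run from 46 at the 1612 bp Rbm4 site in I/R 3 to 1019 at Hnrnpa2b1 in sham 2. At Qk and Cpeb3 the I/R libraries lie above the sham libraries, and at the 1612 bp Rbm4 and Gigyf2 sites below. The counts are not scaled for depth, and once scaled those of Gigyf2 overlap between the groups.

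In edgeR 9 of the 102 sites passed an adjusted p of 0.05 in non-junction reads (8.82%), 4 of them higher in I/R (3.92%). The fitted log2 fold change of Cpeb3 was 0.63 (SE 0.18), that of Qk 0.34 (SE 0.18), of Gigyf2 -0.25 (SE 0.20) and of Rbm4 -0.47 (SE 0.23). The scaling moves all sites: the median over the 102 was -0.04 with TMM factors and -0.23 by library size only. By library size only the 4 sites had 0.42, 0.14, -0.44 and -0.67 in the order Cpeb3, Qk, Gigyf2 and Rbm4. The Rbm4 value was -0.20 without sham 1, and that of Gigyf2 was 0.03 without I/R 4 and -0.53 without I/R 3.

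**Figure D5:**
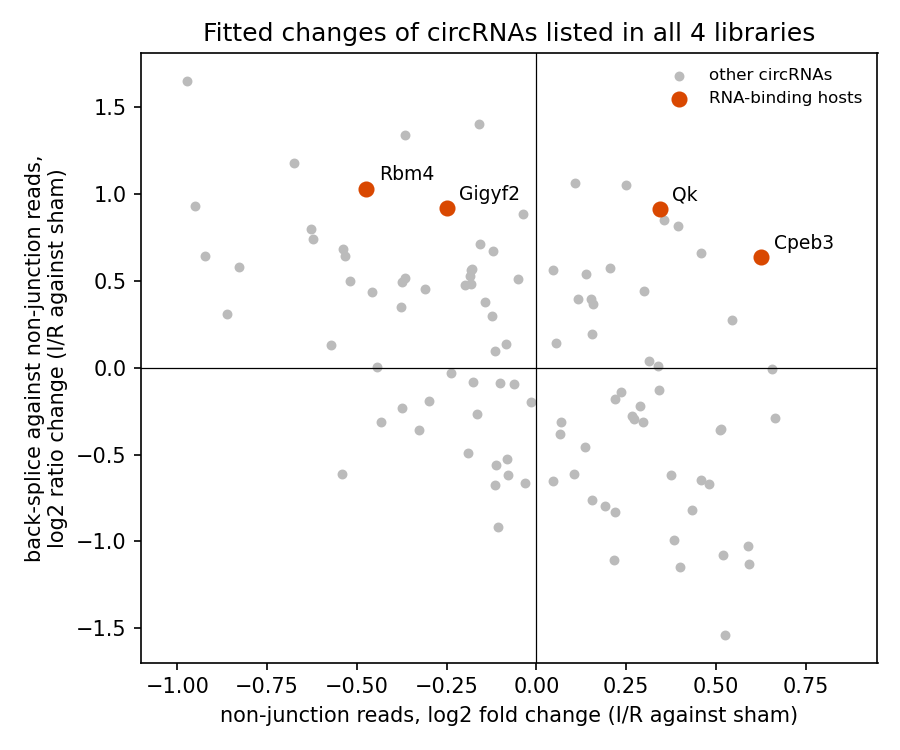
Fitted log2 fold change of non-junction reads (horizontal) and log2 ratio change of back-splice against non-junction reads (vertical), I/R against sham, for the 102 circRNAs listed in all 4 libraries, with the 4 of the RNA-binding hosts in orange. All 4 lie above 0 on the vertical axis, from 0.64 (Cpeb3) to 1.03 (Rbm4), and on both sides of 0 on the horizontal axis, from -0.47 (Rbm4) to 0.63 (Cpeb3).

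Other genes of RNA-binding proteins were taken from lists. Of 63 further splicing regulators 9 hosted a circRNA, of 22 further hnRNP proteins 3, of 22 SR proteins and their kinases 3, and of 59 further regulators of translation and mRNA decay 13. Their circRNAs held 9, 9, 16 and 9 reads for splicing regulators, 4, 2, 0 and 11 for hnRNP proteins, 2, 0, 3 and 8 for SR proteins and kinases, and 20, 11, 19 and 21 for translation and decay. Only 4 of their circRNAs had at least 10 reads in all and a read in at least 2 libraries. Of the 4, 0 passed (edgeR, over all 158). Described here are those of Zranb1 (0, 9, 5 and 9 reads in library order), which stands in the list of splicing regulators but is known to encode a deubiquitinase, Hnrnpu (4, 2, 0 and 6), which encodes a nuclear matrix RNA-binding protein, and the deadenylase subunit gene Pan3 (4, 3, 4 and 0). In these 3 the groups overlapped, and each was unlisted in 1 library. Their fitted log2 fold changes were 0.65, 0.01 and -0.76 in that order, with SEs from 1.18 to 1.42.

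The circRNAs most like these in their pattern over the 4 libraries were found by the distance between centred log2 CPM values (prior count 2) among the 158. Qk and Cpeb3 were nearest to each other (distance 0), followed for both by Phf21a with 3, 3, 4 and 8 reads (0.416, against a median distance of 1.24). The 1612 bp Rbm4 circRNA was nearest to one of Ryr2 with 3, 3, 2 and 7 reads (0.137) and one of Mkln1 with 5, 6, 6 and 11 (0.299). Gigyf2 was nearest to circRNAs of Vav3 (4, 5, 8 and 5 reads, 0.166) and Emc2 (4, 4, 8 and 4 reads, 0.221). These distances rest on 4 libraries and few reads.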

How the data were processed

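The authors deposited counts of back-splice and non-junction reads per circRNA and library, a fraction made from both (largest deviation from the formula 0.0005), a merged matrix of counts (0 cells differ from the per-library files) and a comparison table whose columns hold a log2 fold change, p-values and score values, per the file headers. The submitters' processing notes name build mm9, HTSeq 0.9.1 and BWA 0.7.5a-r405, with a circRNA caller not given in the sources used here. Of 951 exonic circRNAs, 18 had both ends at exon boundaries of the host in GRCm38, so positions were left in mm9. Counts were fitted over the whole table, I/R against sham, with edgeR 4.0.16 (R 4.3.3; quasi-likelihood F test, TMM factors, Benjamini-Hochberg adjustment at 0.05). The SE was taken from the F statistic. Non-junction reads and their ratio to back-splice reads were fitted at the 102 circRNAs listed in all 4 libraries. DESeq2 1.42.0, other scalings, other filters and leaving out each library were alternatives. The scripts were tested on simulated data. The spread behind each p-value is that between libraries and may be technical. Named circRNAs are all those of the 5 hosts, the tested circRNAs of 4 RNA-binding gene lists (the result of 1 gene is not reported here, while counts include it) and the 2 most alike in pattern for each host. The members and lists were chosen with earlier results of these data known.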

Additional observations from a re-analysis of the deposited data

How the results depend on the processing

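No paired analysis was possible because the groups share no replicate number. Calls over all circRNAs went from 0 to 3 without a filter, and calls over hosts from 0 to 1; the other alternatives gave 0. Sites called by non-junction reads went from 9 to 5 with median-ratio (RLE) factors, 4 by library size only and 2 in DESeq2, and ranged from 1 to 8 without a library. Sites called by back-splice against non-junction reads went from 1 to 0 with at least 10 back-splice reads, where 100 sites were tested, and were 0 to 0 without a library. The cause was not tested. Without I/R 4, the log2 fold change of the 1612 bp Rbm4 circRNA turned from 0.59 to -0.17 (range without a library -0.17 to 0.93). The share of Rbm4 circRNAs in all back-splice reads (I/R minus sham) then turned from 0.242 to -0.0354 percentage points (-0.0354 to 0.520). The non-junction log2 fold change at Gigyf2 went from -0.25 to 0.0299 without I/R 4 (-0.53 to 0.0299). Also without I/R 4, the difference in circular share of the joined Rbm4 circRNAs turned from 4.00 to -1.03 percentage points. That difference was -2.61 without sham 1, 10.6 without sham 2 and 8.67 over the reads of a group. With only the circRNA listed in all 4 libraries it was 13.2. Except for that last value, the sites joined differ between libraries, since each library adds only the circRNAs it lists. The Qk and Cpeb3 back-splice log2 fold changes stayed between 0.99 and 1.36 in 9 alternatives each, and their ratio changes between 0.76 and 1.05 (Qk) and 0.33 and 0.92 (Cpeb3) in 6. The non-junction log2 fold change at Rbm4 ranged from -0.68 to -0.20 over its alternatives. No circRNA here had more than 17 back-splice reads in a library, which limits the precision of the back-splice values.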
